A study of Mus musculus with 3 samples.

Results

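The 10 genes described here are 3 acute-phase effectors (Saa3, Lcn2 and Ptx3), 3 ligands of the interleukin-6 (IL-6) family (Il6, Lif and Il11), 3 receptor chains (Il6ra, Il6st and Osmr) and the feedback inhibitor Socs3. They were selected by name, on levels by cluster and by tumor already seen in these data, so what follows is a description and no difference is tested. All 10 were found by their Entrez IDs among the 36530 features of the count tables. The tissue was melanoma of the genetically engineered C57BL/6 mouse in which Braf LSL.V600E is recombined by Tyr.CreER, an inducible recombinase under a melanocyte promoter, after 4-OH tamoxifen was put on the skin. The study's methods describe this line with and without a Rosa26 LSL.tdTomato reporter and do not say in words which of them each profiled tumor carried. Only the melanocyte lineage carries the recombined genotype, so the stromal and immune cells were the host's own. One library was an untreated tumor, 1 a tumor regressed under vemurafenib, an inhibitor of mutant Braf, and 1 a tumor progressed under it. Per the methods, vemurafenib was given by oral gavage. Each group was therefore 1 tumor, and the age of these 3 animals and the length of treatment were not in the labels. The study's results describe the tumors used for single-cell RNA as naive, under acute vemurafenib treatment and progressed.

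IL-6 family cytokines signal through a receptor chain of their own and the shared chain gp130, the product of Il6st. Ligand binding activates JAK kinases and the transcription factor STAT3, and Socs3, itself a STAT3 target, then blocks the receptor. The best known output is the acute-phase response, in which the liver and, locally, fibroblasts, epithelium and myeloid cells make serum amyloid A, pentraxins, lipocalin and complement proteins. Fibroblasts of inflamed skin and of tumors are a known source of IL-6 and of leukemia inhibitory factor.

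The untreated library held 4095 cells, the regressed one 3726 and the progressed one 4849, with 22202192, 12413268 and 26948940 unique molecular identifiers (UMIs), the tags that count captured RNA molecules once. Cells of the regressed library were shallower (median 2658 UMIs, against 4496 untreated and 4566 progressed). Its mouse also differed in sex, since Xist stood at 0.403 UMIs per 1000000 UMIs (CPM) there and at 1494 and 1735 CPM in the untreated and progressed libraries. Sex, animal, depth, tissue digestion, library and treatment cannot be told apart. Of the 10 clusters that the authors called stroma, few were shared: Stroma1 held 472 untreated, 1 regressed and 0 progressed cells, and Stroma10 held 4, 1537 and 7. Fibroblast markers summed to between 28285 and 59794 CPM in every stroma cluster with at least 20 cells. Neutrophil RNA was present in stroma of the untreated tumor, where the neutrophil markers summed to 663 to 813 CPM in every such cluster, against 121 to 460 in the regressed and 0 to 18.1 in the progressed tumor. Levels are CPM of the summed UMIs of a group of cells, in brackets with exact 95% intervals that cover counting error only, and are compared within a gene, not between genes. Clusters are described where they held at least 20 cells of a tumor, unless a smaller number is given.

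The sequence upstream of 5 members is shown first, because 4 of them, the 3 acute-phase effectors and Il6, share 1 element and the fifth, Socs3, holds another. Each line gives the 250 bases before the start site of RefSeq on GRCm38.p6, read 5′ to 3′ on the strand of the gene. Capitals mark matches, on either strand, to the binding motifs of C/EBP (TTGCNNAA), STAT (TTCNNNGAA), AP-1 (TGANTCA) and NF-kB. The stretches are chr7:46715677-46715926 on the minus strand for Saa3, chr2:32387740-32387989 on the minus strand for Lcn2, chr3:66219637-66219886 on the plus strand for Ptx3, chr5:30012864-30013113 on the plus strand for Il6 and chr11:117969367-117969616 on the minus strand for Socs3.
Saa3: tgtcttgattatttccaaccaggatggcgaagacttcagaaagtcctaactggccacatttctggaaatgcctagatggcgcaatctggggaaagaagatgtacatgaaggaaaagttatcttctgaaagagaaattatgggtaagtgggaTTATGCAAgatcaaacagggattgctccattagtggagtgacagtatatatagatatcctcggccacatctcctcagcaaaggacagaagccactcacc
Lcn2: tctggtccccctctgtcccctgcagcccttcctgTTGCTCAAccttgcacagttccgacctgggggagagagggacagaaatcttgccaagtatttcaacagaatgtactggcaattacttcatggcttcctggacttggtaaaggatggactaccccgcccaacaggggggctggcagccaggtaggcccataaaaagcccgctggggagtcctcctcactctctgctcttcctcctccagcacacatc
Ptx3: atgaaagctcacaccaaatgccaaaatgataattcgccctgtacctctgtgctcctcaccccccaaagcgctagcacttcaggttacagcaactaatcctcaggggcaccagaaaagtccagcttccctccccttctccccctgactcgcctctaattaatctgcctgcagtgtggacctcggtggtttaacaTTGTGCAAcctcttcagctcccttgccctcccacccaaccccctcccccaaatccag
Il6: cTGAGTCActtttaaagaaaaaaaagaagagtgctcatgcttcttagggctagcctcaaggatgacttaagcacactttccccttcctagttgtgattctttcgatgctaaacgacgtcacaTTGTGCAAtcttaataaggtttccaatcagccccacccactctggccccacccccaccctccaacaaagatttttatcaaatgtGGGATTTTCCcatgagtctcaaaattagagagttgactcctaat
Socs3: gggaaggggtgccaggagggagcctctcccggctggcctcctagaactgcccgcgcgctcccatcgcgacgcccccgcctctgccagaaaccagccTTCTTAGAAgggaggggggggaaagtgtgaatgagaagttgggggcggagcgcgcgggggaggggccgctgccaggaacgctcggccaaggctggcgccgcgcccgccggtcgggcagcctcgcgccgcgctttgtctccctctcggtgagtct

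With the first transcribed base as 0, the C/EBP match lay at -99 to -92 in Saa3, at -216 to -209 in Lcn2, at -57 to -50 in Ptx3 and at -128 to -121 in Il6. C/EBP factors are basic leucine zipper proteins known to drive acute-phase genes. None of the other 6 members held that match in its window of 250 bases before to 50 after the start site, and 10.8% of 32851 RefSeq promoters of the same length did. Socs3 was the only member with a STAT match, at -154 to -146, which 8.30% of promoters held. AP-1 matches (7.81% of promoters) stood in Il6, Lif, Osmr and 1 of the Il11 windows. NF-kB matches (8.46% of promoters) stood in Il6 at -44 to -35, in Lif at -178 to -169 and in Ptx3, where a pair of overlapping matches from -1 to 9 crossed the start site and is not in capitals above. The start sites of Saa3 and Socs3 lie inside the annotated span of the gene. The motifs were picked with the sequences in view, and a match is a run of letters, not a bound site.

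In non-immune stroma (Stroma1 to Stroma10, 2628 untreated, 1918 regressed and 3422 progressed cells), the acute-phase effector Saa3 went with the untreated tumor, Il6 and Socs3 were lowest in the regressed one, and Ptx3 was highest in the progressed one. Saa3 stood at 1345, 15.4 and 2.67 CPM in untreated, regressed and progressed stroma, and Il6 at 159, 5.76 and 105. Ptx3 stood at 46.1, 23.8 and 167, and Socs3 at 1611, 384 and 1175. Of the receptor chains, Il6st stood at 290, 199 and 222, Osmr at 103, 52.5 and 98.0, and Il6ra at 4.40, 10.3 and 11.4. A ratio of 2-fold was used as the line for a count, among the features with at least 20 UMIs over both tumors.

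In the regressed against the untreated stroma, 4 members were past 2-fold lower (Saa3, Il6, Lcn2 and Socs3), as were 7.09% of the 14791 features counted, and 1 was past 2-fold higher (Il6ra), as were 13.7%. In the progressed against the regressed stroma, 3 were past it on the higher side (Il6, Ptx3 and Socs3; 4.99% of 14806 features) and 2 on the lower side (Saa3 and Lcn2; 15.9%). In the progressed against the untreated stroma, 2 were higher (Ptx3 and Il6ra; 3.57% of 15068 features) and 2 lower (Saa3 and Lcn2; 5.7%). The members were picked for these levels, so nothing is read from the counts. Just inside the line were Il6ra at a log2 ratio of 1.22 and just outside it Osmr at -0.97 and Ptx3 at -0.95, all 3 for regressed against untreated. With TMM scaling Osmr moved past the line, at -1.22. The call of Il6ra as higher was lost (0 members) after thinning each cell to 1000 UMIs and with TMM scaling, and without Stroma10 the members called lower numbered 7 in place of 4. The call of Saa3 as lower in progressed than in regressed stroma, at a log2 ratio of -2.53, was lost without the deepest 5% of cells, at -0.62.

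**Figure D1:**
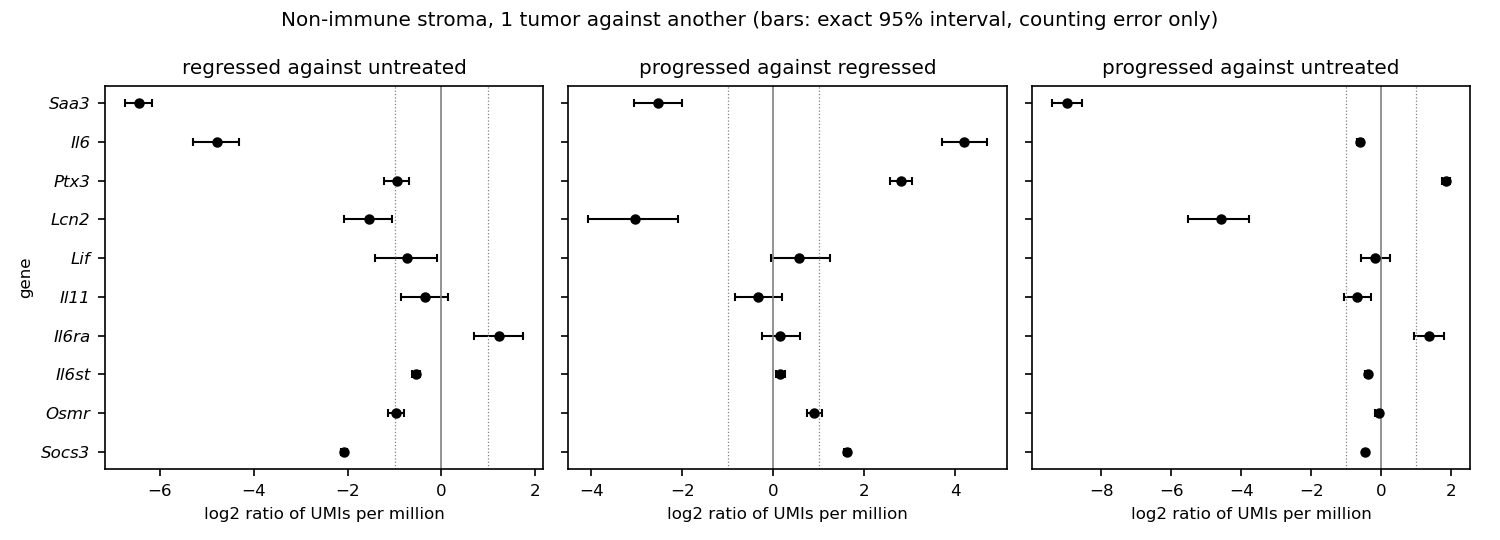
The log2 ratio of CPM in non-immune stroma (x axis) for each of the 10 genes (y axis) in the 3 pairs of tumors; points are ratios, bars exact 95% intervals for counting error, dotted lines the 2-fold mark. Saa3 lies furthest to the left against the untreated tumor, at -6.45 and -8.98, and Il6 furthest to the right for progressed against regressed, at 4.18.

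Saa3, an acute-phase serum amyloid made outside the liver, was concentrated in 1 cluster of 1 tumor. Stroma1 of the untreated tumor held 17600 of the 20878 Saa3 UMIs of that tumor, at 5963 CPM (5875 to 6052), and Monocytes1 held 1236, at 1100 (1039 to 1163). Neutrophils stood at 210 and Stroma2 at 170, and the 30 cells of MitoHigh at 214 on 4 UMIs. The regressed tumor held 140 Saa3 UMIs in all and the progressed one 57, with the highest stromal level of each at 18.5 (Stroma10) and 5.62 (Stroma6). In the regressed tumor 1 cell held 42 of the 140, and in the progressed tumor 1 cell held 31 of the 57.

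Within Stroma1, Saa3 was not spread evenly. Of 472 cells, 257 had no Saa3 UMI, and 99 cells with 10 UMIs or more held 98.7% of the UMIs of the cluster. Of these, 39 held 100 UMIs or more, and 1 held 1398. Monocytes1 had a like shape, with 30 of 225 cells at 10 UMIs or more holding 82.4% of its Saa3. In every other untreated cluster the cells with a UMI mostly held 1 to 9 of them, and 13.3% (Stroma6) to 44.6% (Bloodvessel) of cells had at least 1. T and natural killer cells, which are not known to make Saa3, had a UMI in 28.0% of 25 cells (16.0% after thinning) at a median depth of 4087, and Stroma1 in 45.6% (26.9% after thinning) at 5553.5. After thinning, only Stroma1, Monocytes1 and Stroma8 (17.4% of 23 cells) had a higher share than these cells. So few cells cannot sort the clusters into expression and background, and 1 of the 25 held 8 of their 14 Saa3 UMIs. Stroma8 lay close to them, on 10 UMIs with at most 2 in a cell. Neither its share nor the lower shares are read as expression. Tumor1, at 7.32% after thinning, was among the lower ones. None of those 25 T and natural killer cells held 10 UMIs, but 17 of 1144 Stroma2 cells did, with up to 148 in 1 cell, as did 8 of 391 Neutrophils, with up to 70. Those cells held 67.1% of the Saa3 UMIs of Stroma2 and 69.1% of those of Neutrophils. Stroma1 was clustered on its own expression, so its high Saa3 is a description of the cluster.

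**Figure D2:**
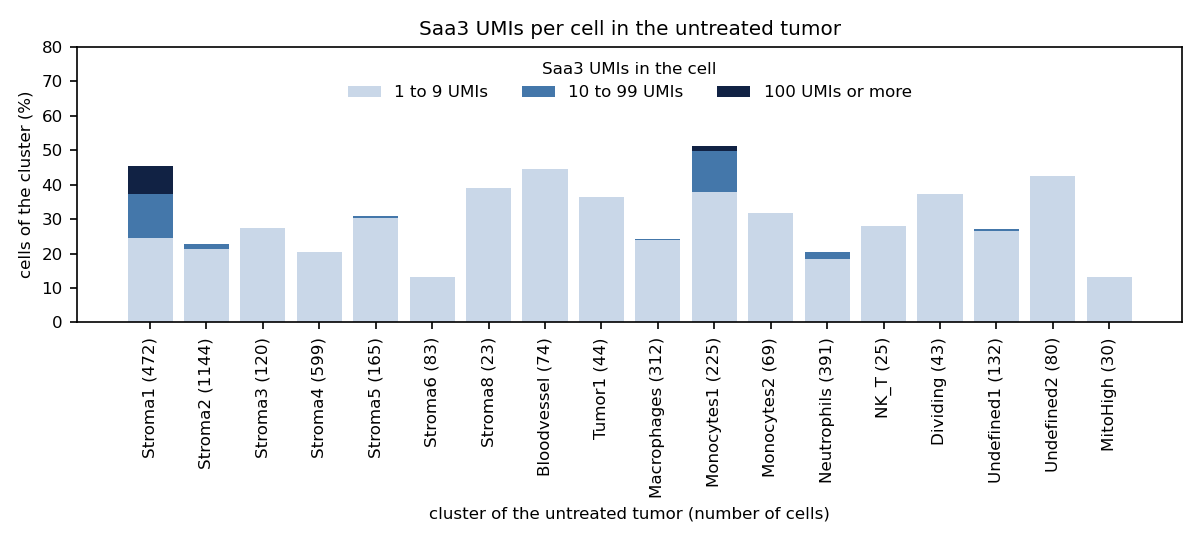
Bars give the share of cells (y axis, percent) of each untreated cluster (x axis, number of cells in brackets) with 1 to 9, 10 to 99 or 100 and more Saa3 UMIs. Cells with 10 UMIs or more made up 21.0% of Stroma1 and 13.3% of Monocytes1, and 0 to 2.05% of the other clusters.

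The 99 Saa3-rich cells of Stroma1 were set beside the 333 cells of the cluster with 0 or 1 Saa3 UMI. CPM in this comparison, and in the like one for Monocytes1, leave Saa3 UMIs out of the totals. The rich cells were deeper, with a median of 8957 UMIs against 4897. Il11 stood at 45.2 CPM in the rich and 6.71 in the poor cells, and Lif at 41.8 and 7.26. Of the 39 rich-cell Il11 UMIs, 1 cell held 14, and of the 36 Lif UMIs 1 cell held 8. The rich cells thus also held more of both of these ligands per UMI, on few molecules.

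Lcn2 stood at 55.7 against 21.8 CPM, Ptx3 at 154 against 97.2 and Il6 at 321 against 208, in rich and poor cells. Osmr (130 and 118) and Il6st (299 and 382) differed little. Socs3 went the other way, at 769 in the rich and 1836 in the poor cells, a log2 ratio of -1.26, and so did Cebpd, which encodes an acute-phase C/EBP factor, at 354 and 1052. Haptoglobin (Hp) stood at 1129 and 303, the acute-phase gene Serpina3n at 450 and 297, and Cebpb at 123 and 64.8. C3, also an acute-phase gene, was lower in the rich cells (399 and 633, a log2 ratio of -0.66, -0.84 to -0.49). The fibroblast markers Col1a1 (4734 and 3933) and Col3a1 (8335 and 6633) were present in both sets. Of the myeloid genes, at low levels, Lyz2 was alike (10.4 and 10.1). Csf1r was higher in the rich cells (25.5 and 6.71, a log2 ratio of 1.93, 0.85 to 3.08). It had a UMI in 19 of 99 rich and 12 of 333 poor cells, and a myeloid part in the rich cells was not tested. S100a8, a neutrophil gene, stood at 360 and 329. Among genes with a matched symbol and a minimum of UMIs in both sets, those with the highest ratios were chosen after their values were seen. They included Mmp12 (142 and 3.91) and Reg3g, an antimicrobial lectin (205 and 10.6). Tnc, the matrix protein tenascin C (753 and 57.6), and Slpi, a protease inhibitor (391 and 42.5), were also among them. Of the rich-cell UMIs, 1 cell held 71 of the 122 of Mmp12, and 1 cell held 76 of the 177 of Reg3g.

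In Monocytes1 the 30 Saa3-rich cells (median depth 6980.5 UMIs, against 4063 in 151 poor cells) kept the myeloid profile, with Lyz2 at 9982 and 6901 CPM and Csf1r at 437 and 492. Lcn2 stood at 283 in the rich and 64.4 in the poor cells. Socs3 stood at 855 and 751, so the lower Socs3 of the Saa3-rich cells of Stroma1 was not seen there. S100a8 was higher in the rich cells (4203 and 1951), and the part of neutrophil RNA in their Lcn2 was not tested.

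Lcn2, a lipocalin that binds bacterial siderophores and is stored in neutrophil granules, went against the name stromal. Neutrophils of the untreated tumor held 5825 of its 6636 UMIs, at 3830 CPM (3732 to 3929), and those of the regressed tumor stood at 528 (448 to 617). The progressed tumor had 4 neutrophils. There, Undefined1, a cluster in which keratinocyte markers summed to 11936 CPM, held 297 of 465 UMIs, at 189 CPM, against 156 in the untreated and 27.4 in the regressed tumor. Bloodvessel cells stood at 122, 37.3 and 121, and untreated Monocytes1 at 150. Stroma clusters of the untreated tumor stood between 8.21 and 33.2, and those of the progressed tumor between 0 and 1.81.

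The stromal Lcn2 was set beside neutrophil RNA in the same cells. Untreated neutrophils held 17.8 Lcn2 UMIs (17.3 to 18.2) per 1000 UMIs of S100a8 and S100a9, both neutrophil calprotectin genes. Stroma2 (22.3), Stroma3 (14.3), Stroma4 (19.3), Stroma5 (27.0), Stroma6 (18.7) and Stroma8 (13.2, on 1 Lcn2 UMI) had intervals that held that value. Stroma1 stood apart at 51.0 (41.2 to 62.5), Bloodvessel at 49.4 (39.8 to 60.7), Monocytes1 at 47.3 (40.3 to 55.2) and Undefined1 at 212 (177 to 253). Intervals also lay above it in Monocytes2 (49.8), Undefined2 (31.5) and Dividing (70.1). In 6 of 7 untreated stroma clusters, then, the ratio could not be told from that of neutrophils, and in Stroma1 there was more Lcn2 than that ratio gives. In the progressed tumor, where calprotectin RNA was nearly absent, Undefined1 held 297 Lcn2 UMIs beside 70 of calprotectin.

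**Figure D3:**
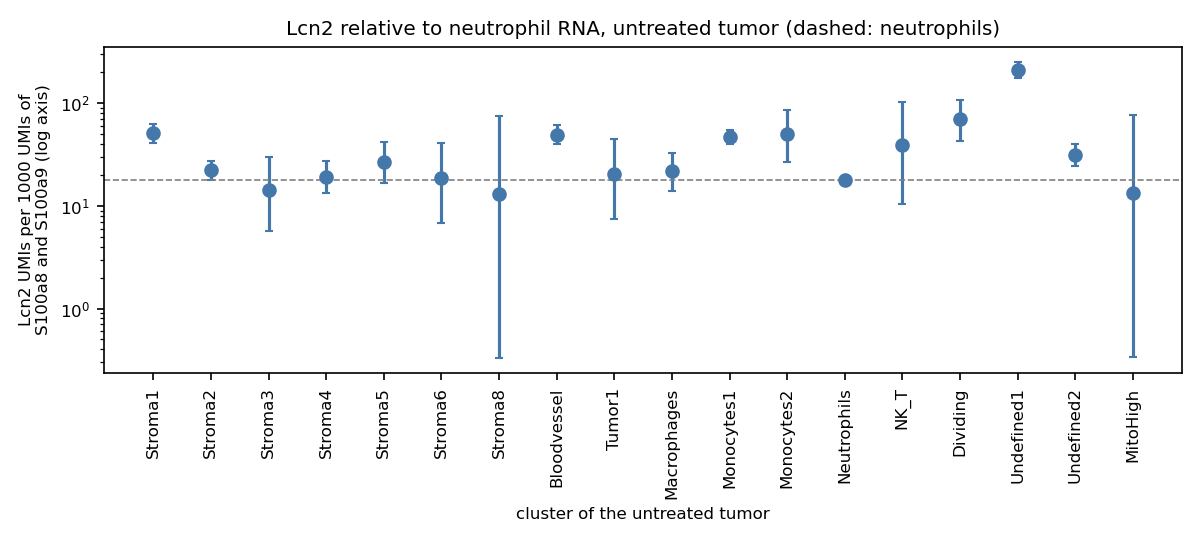
Lcn2 UMIs per 1000 UMIs of S100a8 and S100a9 (y axis, log scale) by cluster of the untreated tumor (x axis); points are ratios, bars exact 95% intervals for counting error, and the dashed line is the neutrophil value of 17.8. Undefined1 at 212 lies highest, and Stroma3, Stroma4 and Stroma6 lie near the line.

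Ptx3 encodes pentraxin 3, a soluble pattern recognition protein made locally by fibroblasts and myeloid cells. Its highest levels were in a few stroma clusters. Stroma8 stood at 435 CPM (326 to 569, 23 cells) in the untreated and 473 (381 to 582, 21 cells) in the progressed tumor, and the intervals overlapped. Stroma5 stood at 60.7 (48.1 to 75.5) in the untreated and 400 (383 to 417) in the progressed tumor, a log2 ratio of 2.72. Stroma5 held 2211 of the 3176 Ptx3 UMIs of the progressed tumor, and 62.2% of its 754 cells had at least 1 (23.5% after thinning). Stroma7 stood at 137 in the progressed tumor and Stroma1 at 112 in the untreated one.

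Regressed stroma was low in Ptx3, with Stroma10 at 28.0 (23.5 to 33.1) and Stroma9 at 5.06. Untreated neutrophils held 2 UMIs (1.32 CPM) and untreated T and natural killer cells 0. Progressed dividing cells (81.8) and mast cells (53.8, with 16 UMIs in 3 of 85 cells) also held some. Over the 6 stroma clusters with at least 20 cells in both tumors, the progressed level was above the untreated one in 5, past 2-fold in 2, with a median log2 ratio of 0.31. The pooled log2 ratio was 1.86. It was 0.17 when the 4 clusters with at least 10 cells in each tumor (Stroma3, Stroma4, Stroma6 and Stroma8) were weighted equally. That set leaves out Stroma1 and Stroma5, and its highest levels were those of the few cells of Stroma8.

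Il6, the ligand that names the family, was highest in stroma, blood vessel and mast cells. In the untreated tumor Stroma1 stood at 243 CPM (226 to 261), Stroma2 at 199 (188 to 211), Stroma8 at 164 (100 to 254) and Stroma6 at 127 (96.6 to 163). In the progressed tumor Stroma6 stood at 170 (159 to 181), Stroma5 at 103 and Stroma4 at 59.4. In the regressed tumor Stroma10 stood at 6.79 (4.68 to 9.54), Stroma9 at 2.17 and Stroma4 at 0 of 24748 UMIs, for which 3 UMIs give a limit of 121. A UMI was found in 36.0% of Stroma1 cells (16.9% after thinning), 24.8% of progressed Stroma6 cells (11.3%) and 1.30% of Stroma10 cells (0.362%). At a median of 5553.5 UMIs a cell, Stroma1 compares with T and natural killer cells (0 of 25 with an Il6 UMI, median 4087). Stroma9 and Stroma10 lay below each untreated and progressed stroma cluster, with intervals that overlapped only those of progressed Stroma3 (18.1, 8.70 to 33.3) and Stroma8 (26.3, 8.54 to 61.4), and the limit for regressed Stroma4 was too high to tell.

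Il6 RNA was also counted in cells outside the stroma. Bloodvessel cells stood at 125 (101 to 152) untreated, 28.0 (10.3 to 60.9) regressed and 178 (118 to 258) progressed. Regressed mast cells stood at 18.2 (6.69 to 39.7) and progressed ones at 118 (82.0 to 164), where 7 of 85 cells held all 35 UMIs and 2 cells held 30 of them. In progressed Bloodvessel 1 of 28 cells held 18 of the 28 UMIs, so both progressed levels rested on few cells. Of the myeloid clusters, untreated Monocytes2 stood highest at 58.6, and Tumor1 was at 4.53 in the untreated tumor on 1 UMI.

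Against the untreated tumor, the progressed level of Il6 was mixed across the 6 shared stroma clusters. It was higher in Stroma5 (log2 ratio 0.69, 0.36 to 1.04) and Stroma6 (0.42, 0.04 to 0.82), within counting error in Stroma4 (0.06, -0.25 to 0.37), and lower in Stroma2 (-1.59), Stroma3 (-1.47) and Stroma8 (-2.64). The last 3 rested on 8, 10 and 5 progressed UMIs. The pooled log2 ratio of -0.60 thus averaged clusters that went both ways.

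**Figure D4:**
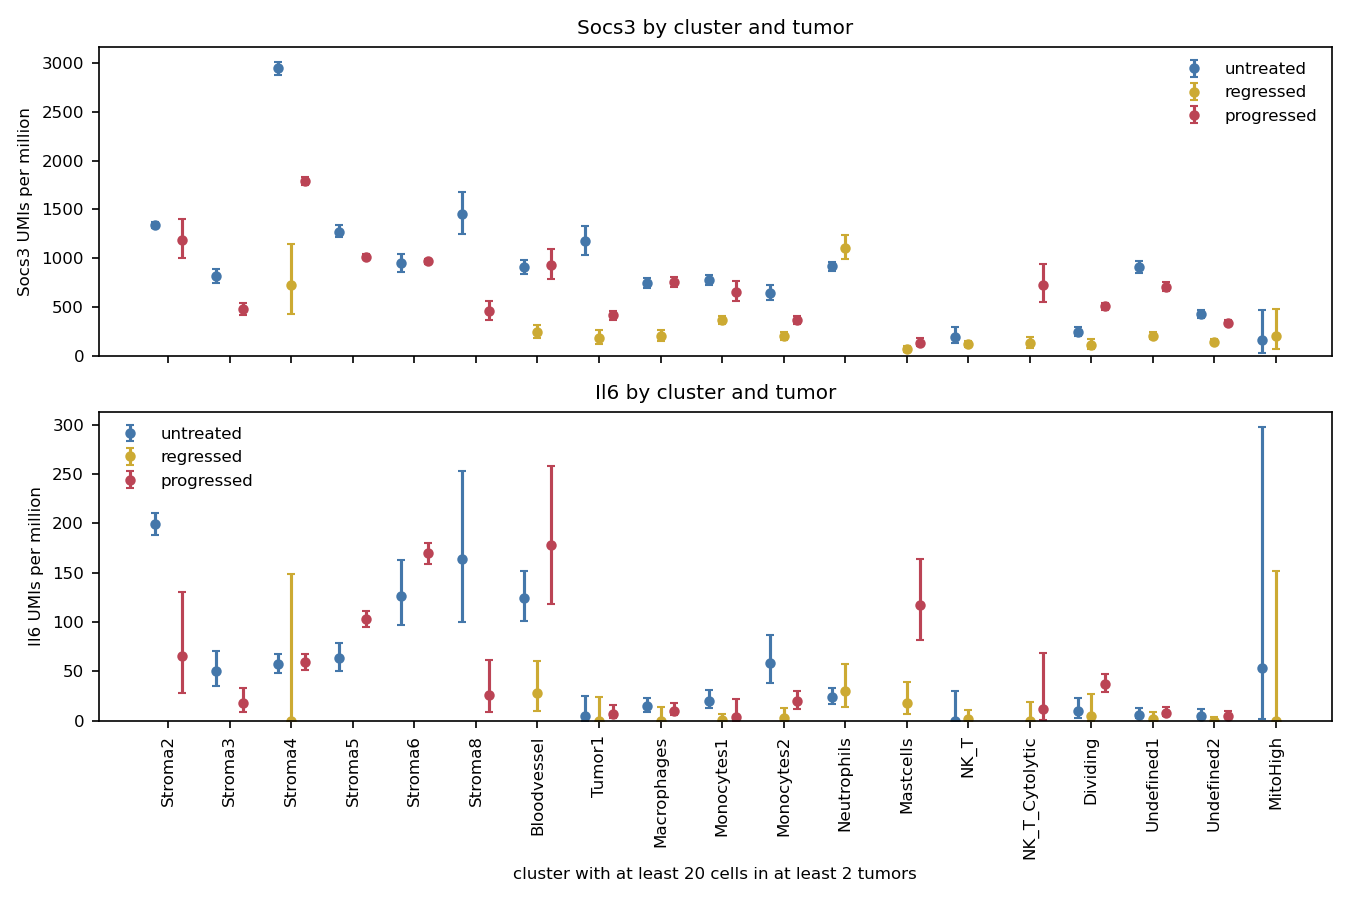
CPM (y axes) of Socs3 (top) and Il6 (bottom) in each cluster with at least 20 cells in at least 2 tumors (x axis); blue is untreated, yellow regressed and red progressed, and bars are exact 95% intervals for counting error. Socs3 in Stroma4 runs from 727 (regressed) to 2949 (untreated), and Il6 in Bloodvessel from 28.0 (regressed) to 178 (progressed).

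Lif and Il11, gp130 ligands that signal through LIFR and the IL-11 receptor, were rare messages. Untreated, regressed and progressed tumors held 121, 40 and 164 Lif UMIs and 138, 53 and 115 Il11 UMIs. Lif was highest among untreated stroma clusters in Stroma1 at 18.6 CPM (14.0 to 24.3), the other untreated ones lying between 0 and 8.44. Progressed tumor cells (Tumor1) stood at 25.4 (15.7 to 38.8), untreated ones at 18.1 (4.94 to 46.4), and regressed ones had 0 UMIs in Tumor1 and 11.2 CPM in Tumor2. Untreated T and natural killer cells stood at 82.6 on 10 UMIs in 5 of 25 cells. Tumor cells and lymphoid cells thus carried Lif as well as stroma.

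Il11 was nearly all stromal. It stood at 17.6 (13.2 to 23.1) in untreated Stroma1, between 0 and 10.9 in the other untreated stroma clusters, at 8.03 in regressed Stroma10 and between 0 and 10.9 in the progressed stroma. Regressed Stroma4 stood at 40.4 on 1 UMI. Macrophage, monocyte and mast cell groups held 0 to 2 UMIs each, between 0 and 4.60 CPM. In pooled stroma the log2 ratio of regressed to untreated was -0.35 (-0.86 to 0.14) for Il11 and -0.74 (-1.42 to -0.10) for Lif, and the sign of both changed in some alternatives.

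The receptor chains divided by compartment. Il6ra, the chain that binds IL-6 itself, had most of its higher levels in myeloid cells and Undefined2, while progressed Stroma8 stood at 68.4 CPM (36.4 to 117) on 13 UMIs in 21 cells. It stood in untreated, regressed and progressed cells at 56.2, 37.1 and 56.9 CPM in Macrophages, at 55.2, 78.9 and 64.3 in Monocytes1, and at 53.9, 75.9 and 44.4 in Monocytes2. Undefined2, whose keratinocyte markers summed to over 31412 CPM in each tumor, stood at 32.8, 55.0 and 52.2. A UMI was found in 31.2%, 25.5% and 33.0% of Undefined2 cells (3.80%, 5.38% and 4.81% after thinning, at median depths of 9428.5, 6818 and 8666 UMIs). Stroma clusters of the untreated tumor had a UMI in 1.20% to 6.06% of cells, and 0 of 25 untreated T and natural killer cells had one.

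Stromal Il6ra was low but not equal among tumors. Pooled stroma stood at 4.40, 10.3 and 11.4 CPM on 62, 66 and 201 UMIs. Progressed Stroma8 stood out at 68.4 (36.4 to 117), with 13 UMIs in 9 of 21 cells, against 8.21 on 1 UMI in the untreated tumor. Stroma5 stood at 7.59 untreated and 16.3 progressed, on 10 and 90 UMIs. Macrophage and monocyte markers in stroma clusters summed to 41.0 to 62.2 CPM untreated, 80.8 to 202 regressed and 42.1 to 94.3 progressed, and their part in the stromal Il6ra was not tested.

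Il6st, the shared chain gp130, and Osmr, the oncostatin M receptor chain that pairs with it, were high in stroma and blood vessel. Il6st stood at 355 (334 to 377) in untreated Stroma1, 220 (207 to 234) in regressed Stroma10 and 242 in progressed Stroma6. Bloodvessel stood at 187, 266 and 178 in the 3 tumors, and macrophages at 43.8, 63.1 and 38.7. Osmr stood at 122 (110 to 136) in untreated Stroma1, 45.9 (40.1 to 52.3) in regressed Stroma10 and 129 (120 to 139) in progressed Stroma6, and at 7.44, 3.71 and 5.53 in macrophages. Tumor1 carried Il6st at 186, 185 and 94.2, and the untreated value was close to that of untreated Bloodvessel. Within the 6 stroma clusters shared by the untreated and the progressed tumor, 0 were past 2-fold in either direction for either chain, with median log2 ratios of -0.06 (Il6st) and 0.22 (Osmr).

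Regressed stroma lay below untreated stroma by a log2 ratio of -0.54 for Il6st and -0.97 for Osmr, and above it for Il6ra. Over all clusters with at least 20 cells in both tumors, however, regressed Osmr was above untreated Osmr in 7 of 11 with a value, including Bloodvessel (121 and 44.9). Only in Bloodvessel did the interval of that ratio lie above 0, at a log2 ratio of 1.43 (0.64 to 2.21). Since Stroma10 held most regressed stroma and was almost absent from the other tumors, cluster makeup and level cannot be told apart in the pooled ratio.

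Socs3, which blocks gp130 signaling by binding the receptor and its JAK kinases, was found in nearly every cell type, and its level was lower in the regressed tumor in most of them. Of 12 clusters shared by the untreated and the regressed tumor, the regressed level was below the untreated one in 10, in 9 of them past 2-fold, with a median log2 ratio of -1.62. Macrophages stood at 743, 200 and 757 CPM in untreated, regressed and progressed cells, Bloodvessel at 909, 243 and 930, and Monocytes1 at 773, 368 and 659. Tumor1 stood at 1174, 185 and 414. The regressed value was the lowest of the 3 in each of these.

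Stroma4 held the highest Socs3, at 2949 (2883 to 3016) untreated, 1790 (1747 to 1834) progressed and 727 (431 to 1150) regressed, the last from 20 cells. In regressed Stroma10 and Stroma9 it stood at 436 (418 to 455) and 213 (190 to 239). The lowest untreated and progressed stroma clusters were Stroma3 (815 untreated, 479 progressed) and Stroma8 (457 progressed, 366 to 564), so Stroma10 overlapped the last of these within counting error. Neutrophils were the exception, at 917 (870 to 967) untreated and 1109 (993 to 1236) regressed. Mitochondria-rich cells also stood higher in the regressed tumor, on 5 and 3 UMIs. In all 11 clusters shared by the regressed and the progressed tumor the progressed level was higher, with intervals above 0 and a median log2 ratio of 1.30. Thinning each stromal cell to 1000 UMIs left the pooled log2 ratio of regressed to untreated at -2.06, against -2.07 at full depth.

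**Figure D5:**
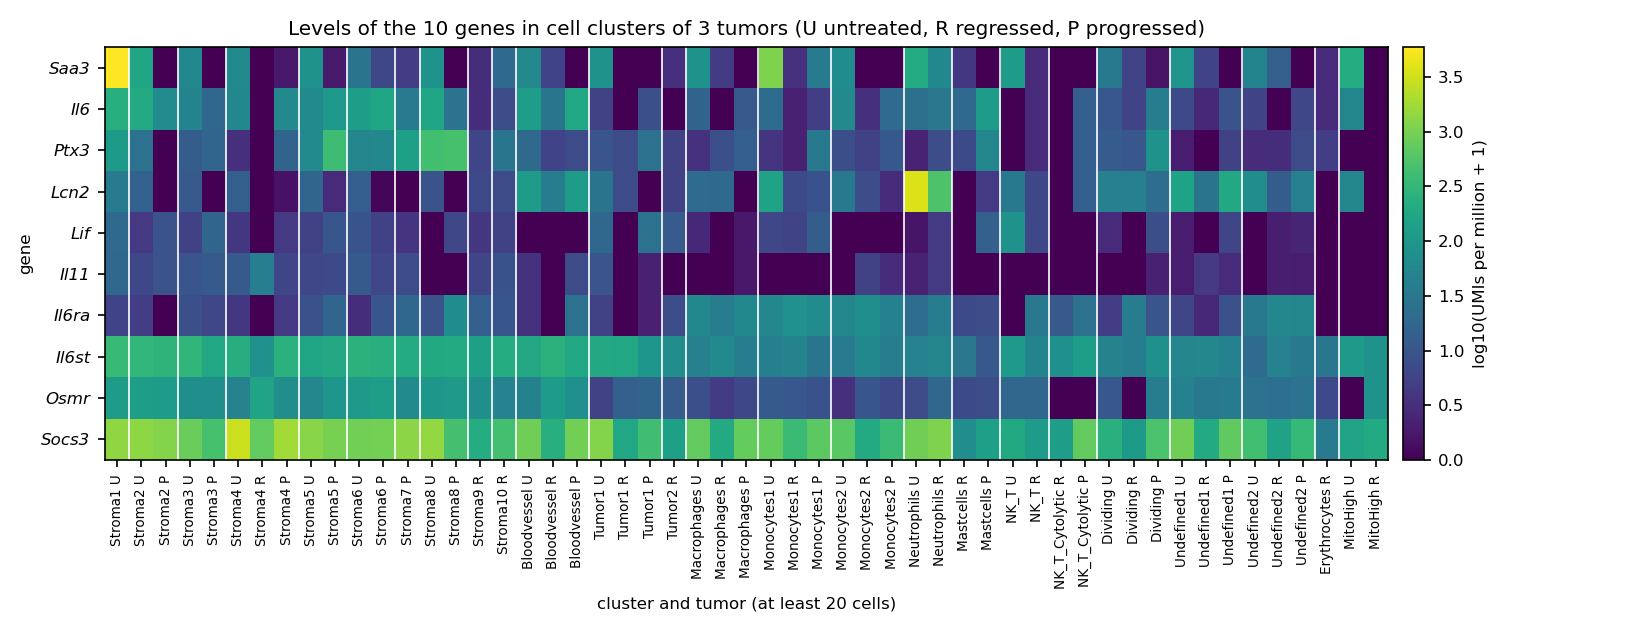
Colour gives log10 of CPM plus 1 for each gene (rows) in each cluster and tumor with at least 20 cells (columns; U untreated, R regressed, P progressed). Saa3 is brightest in untreated Stroma1 (5963), Lcn2 in untreated neutrophils (3830) and Ptx3 in the Stroma8 and progressed Stroma5 columns, while Il6ra is brighter in macrophage and monocyte columns than in most stroma columns.

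Other genes of the pathway were counted from 6 lists in pooled stroma, where the median log2 ratio of all features counted was 0.14 (regressed to untreated), -0.20 (progressed to regressed) and -0.06 (progressed to untreated). Of 8 other IL-6 family ligands 3 could be counted. Osm, encoding oncostatin M, stood past 2-fold higher in the regressed stroma (17.3 CPM, against 6.11 untreated) and past 2-fold lower in the progressed (1.19), and its highest levels were in neutrophils, at 1496 regressed and 1041 untreated. Of 5 other receptors 4 could be counted. Cntfr was past 2-fold lower in regressed (5.60) and progressed (5.63) than in untreated stroma (25.6), and Il11ra1, the IL-11 receptor chain, stood at 80.5 regressed and 31.7 progressed. Of 6 kinases and transcription factors, of which Stat3 held the most UMIs, 0 were past 2-fold in any of the 3 pairs. Of all features counted, 3.57% to 15.9% were past it by pair and direction, so nothing is read from that count.

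Of 5 further feedback inhibitors, Socs1 went with Socs3, at 188, 40.2 and 121 CPM in untreated, regressed and progressed stroma. Socs2 stood at 63.4, 61.3 and 152. Of 11 genes known as STAT3-linked, 5 were past 2-fold lower in regressed than in untreated stroma (Myc, Cebpd, Timp1, Ccl2 and Pim1). So were 7.09% of all features, and the median log2 ratio over the list was -0.96. Past 2-fold higher was 1 gene (Cebpb, 339 against 57.4), as were 13.7% of all features. In progressed against regressed stroma 6 were past 2-fold higher (the same 5 and Bcl3), as were 4.99% of all features. Cebpb was past 2-fold lower, as were 15.9% of all features, and the median over the list was 1.27. Ccl2, the monocyte chemokine, stood at 320, 80.9 and 947, and Cebpd at 1059, 417 and 1742. Cebpb, whose highest levels were in regressed neutrophils (6157) and Monocytes1 (1989), ran opposite to those 5 genes.

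Of 19 other acute-phase genes 10 could be counted. In regressed against untreated stroma 8 were past 2-fold lower (7.09% of all features counted) and 0 higher (13.7%), with a median of -1.21, among them Hp (171 and 33.0 CPM, untreated and regressed), Serpina3n (217 and 47.0), complement factor B, Cfb (a log2 ratio of -1.72), and C3 (226 and 86.7). In progressed against untreated stroma 5 were past 2-fold lower (5.7% of all features) and 0 higher (3.57%), with a median of -1.04, and these were Hp (3.35), C3 (44.4), Cfb (99.1), Serpina3n (30.4) and Lbp (115, against 326). The paralogs of Saa3 were not low in the progressed tumor. Saa1 stood at 268, 130 and 322 in untreated, regressed and progressed stroma, and Saa2 at 47.2 and 53.7 in untreated and progressed stroma (log2 ratio of regressed to untreated -1.10), with the highest level of Saa1 in progressed Stroma7 (880), where Saa3 was at 3.84. The split of reads between near-identical paralogs is uncertain, since only uniquely mapped reads were counted. The liver acute-phase genes Crp, Apcs, Fga, Fgb and Fgg held 9, 0, 3, 0 and 2 UMIs over the 3 tumors, and are named after their values were seen. Hp was at 1696 CPM in untreated neutrophils, and the part of neutrophil RNA in stromal Hp was not tested.

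Co-detection of members in single cells was counted after thinning. In untreated Stroma1, Socs3 was found in 63 of 126 cells with a Saa3 UMI (95% interval 41.0% to 59.0%) and in 253 of 342 without one (69.0% to 78.5%). Il6 was found in 16.7% and 17.0% of the same sets, so in Stroma1 the share of cells with it did not differ beyond counting error. Ptx3 was found in 10.3% (5.61 to 17.0) and 4.09% (2.26 to 6.77) of these sets. The lower share of Socs3 with Saa3 was not seen beyond counting error in other untreated clusters. Socs3 was found in 39 of 70 and 660 of 1063 cells of Stroma2, with and without Saa3, and in 25 of 28 and 460 of 565 of Stroma4. Intervals also overlapped in Neutrophils, Macrophages and Monocytes1. In untreated Stroma2, Il6 was found in 18 of 70 cells with Saa3 (25.7%, 16.0 to 37.6) and in 141 of 1063 without (13.3%, 11.3 to 15.5). In untreated Stroma4 it was found in 0 of 28 (0% to 12.3%) and in 34 of 565 (6.02%). In progressed Stroma6, Ptx3 was found in 15 of 141 cells with an Il6 UMI (10.6%, 6.08 to 16.9) and in 43 of 1108 without one (3.88%, 2.82 to 5.19), and Osmr in 31 of 141 and 137 of 1108. In progressed Stroma5, Ptx3 was found in 35.0% (23.1 to 48.4) of cells with Il6 and 22.5% (19.5 to 25.8) of cells without. In untreated Stroma1 the shares were 11.4% (5.34 to 20.5) and 4.63% (2.77 to 7.21). The intervals overlapped in Stroma1 and Stroma5. In progressed Stroma4, Ptx3 was found in 0 of 34 cells with Il6 (0% to 10.3%) and in 11 of 780 without (1.41%), and in untreated Stroma2 in 5 of 159 and 10 of 974. In progressed Stroma7, Il6 was found in 1 of 41 cells with Ptx3 and in 10 of 402 without.

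Across the 53 groups of 1 cluster in 1 tumor with at least 20 cells, the levels of the members were compared with those of 12585 genes by Spearman's rho. Groups of 1 tumor share a library, its depth and its free RNA, so rho is a description and has no p. The genes most like Socs3 were Cebpd (0.82), the neutrophil chemokine Cxcl1 (0.81) and Irf1 (0.77). Those most like Il6 were Fosb (0.74), Gadd45g (0.72) and Zfp36 (0.69), known as early response genes. Saa3 was most like Retnlg (0.81), S100a9 (0.77) and Ngp (0.73), known as neutrophil genes.

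Osmr was most like Phldb2 (0.87) and the IL-1 receptor Il1r1 (0.87), Il6st like Npdc1 (0.86) and Lamb2 (0.85), Il6ra like Wdfy4 (0.75) and Irf5 (0.72), Ptx3 like the fibril collagen Col14a1 (0.67) and Chpf2 (0.67), and Lcn2 like Arg2 (0.68) and Dgat2 (0.68). Lif was most like Meis3 (0.66) and Il11 like Cdc42ep4 (0.79). Among the members, the highest rho values were those of Il6st with Osmr (0.69), Il6 with Socs3 (0.68) and Il11 with Socs3 (0.63), and the lowest was that of Il6ra with Il6st (-0.44).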

How the data were processed

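Messenger RNA of single cells was counted in 3 tumors, 1 per group. Part of the genotype is not reported here. The authors deposited 1 table of UMI counts per gene and cell for each tumor and 1 table of cell labels (the other unit) with a cluster name, total UMIs and genes detected. Per the study's methods, tumors were digested with collagenase and trypsin, libraries read transcript ends, reads were aligned to GRCm38 with GSNAP, uniquely mapped sense reads over exons were counted, cells under 300 UMIs were left out, and clusters were made with Seurat 2.2.0. How doublets were treated is not given in the sources used here, and none were removed. Cell barcodes were not used here: cells carry running numbers, of which 0 are shared.

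Cluster names were kept. Of 36530 features, 31049 matched a symbol. Sums exceeded the deposited totals by 5.02%. UMIs were summed by cluster and tumor. Levels have exact Poisson 95% intervals, shares exact Clopper-Pearson ones, and ratios exact conditional binomial ones. A count of 0 was set to 3 UMIs in ratios. Shares were also computed after thinning cells to 1000 UMIs. Stroma sums held 14077230, 6424698 and 17590557 UMIs. With 1 tumor per group there is no test between groups, and cells are not replicates. The members and lists were chosen with earlier results of these data known. Of the pathway lists, genes past 2-fold with at least 50 UMIs in stroma, or with the most UMIs of their list, may be named, and per member the 3 genes of highest rho. Alternatives were other depths, weights, scalings (TMM, edgeR 4.0.16) and cluster sets. Code was checked on simulated counts. Python 3.11.15, scipy 1.17.1 and R 4.3.3 were used.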

Additional observations from a re-analysis of the deposited data

How the results depend on the processing

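No paired analysis was possible because each group held 1 tumor and the result comes from no test. No stromal ratio of a member past 2-fold changed sign under the alternatives that gave a value. Of the recomputed stromal ratios of the members, 245 moved by less than their counting interval and 81 by more. In regressed against untreated stroma, the members past 2-fold higher numbered 0 after thinning to 1000 UMIs and 0 with TMM scaling, in place of 1, and those lower numbered 7 without Stroma10, in place of 4. With TMM scaling Osmr also moved past 2-fold lower there, at a log2 ratio of -1.22. In progressed against regressed stroma the members lower numbered 1 without the deepest 5% of cells, in place of 2 (Saa3, at a log2 ratio of -0.62 in place of -2.53), and in progressed against untreated stroma those higher numbered 1 with shared clusters weighted equally, in place of 2. With that weighting, the log2 ratio of Saa3 for regressed against untreated was -0.61 in place of -6.45, since those clusters leave out Stroma1 and hold 63 regressed cells.

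The number of all features past 2-fold followed the UMI minimum, which sets how many are counted. With at least 5 UMIs it was 3434 higher in regressed against untreated, 3931 lower in progressed against regressed, and 1082 higher and 1731 lower in progressed against untreated. With at least 100 UMIs, the numbers higher and lower were 940 and 625, 453 and 1103, and 274 and 335 in the same order of comparisons. The cause of the other shifts was not tested. Depth limits Lif, Il11 and the regressed Il6, which rest on under 200 UMIs per tumor.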
